A study of Mus musculus with 6 samples.

Results

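Genes of the unfolded protein response and of the integrated stress response were examined in cerebella in which Purkinje cells carried a constitutively active form of the endoplasmic reticulum (ER) protein STING. The 37 genes were taken by symbol from the deposited count table. They cover ER chaperones, the IRE1, XBP1 and ATF6 branches, the kinases and phosphatase of the translation factor eIF2α, ATF4 and its targets, and ER-associated degradation (ERAD). They are 37 of the 53746 genes in the table, and all 37 were among the 16961 genes with enough counts to be tested. RNA came from whole cerebella of 3 *N153SLSL/LSLPcp2-cre* mice (Pcp2-cre mice) and 3 *N153SLSL/LSL* mice (controls), all 2 months old. Mice 1 and 2 of each genotype were male and mouse 3 was female. Every mouse, controls included, carried the *Sting1* N153S knockin behind a LoxP-Stop-LoxP cassette on both alleles, and the controls had no Cre to remove it. *Pcp2-cre* drives Cre in Purkinje cells, the output neurons of the cerebellar cortex, which are a small share of cerebellar cells, so a value from whole tissue mixes them with granule cells, glia and vessels. The study names ER stress among the activities of STING that do not need interferon, and the comparison asks how transcripts of that response stood in the 2 genotypes.

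The unfolded protein response is set off when unfolded proteins gather in the ER. Its sensors are the nuclease IRE1, which splices *Xbp1* mRNA, the transcription factor ATF6, which is cut free in the Golgi, and the kinase PERK, which phosphorylates eIF2α. XBP1 and ATF6 raise chaperone and ERAD genes, while phosphorylated eIF2α slows translation and favors that of ATF4, the factor at the center of the integrated stress response. Splicing of *Xbp1*, cleavage of ATF6, phosphorylation of eIF2α and translation of ATF4 leave no trace in gene counts, which show the transcripts of the sensors and of their targets.

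Total counts per mouse lay between 6733178 and 10178218. *Sting1* had 23.2, 27.2 and 26.2 CPM (counts scaled to a common library size with edgeR's TMM factors) in controls 1 to 3 and 44.4, 34.2 and 35.5 CPM in Pcp2-cre mice 1 to 3, so every Pcp2-cre mouse lay above every control. The difference was 0.57 on the log2 scale (standard error, SE, 0.0969, adjusted p = 3.59e-04), and 0.45 without Pcp2-cre mouse 1, under the threshold of 0.5. Microglia, which also express *Sting1*, had summed marker levels of 74.9 to 80.2 CPM in controls and 199 to 221 CPM in Pcp2-cre mice, and their part in the *Sting1* difference was not tested. Controls 1 and 2 held far more choroid plexus RNA than any other mouse. The summed level of 8 choroid plexus genes was 815 and 1254 CPM in them, 33.1 CPM in control 3 and 24.8 to 88.2 CPM in the Pcp2-cre mice. Unless another tool is named, p-values are from the quasi-likelihood test of edgeR, adjusted by the Benjamini-Hochberg method over every gene tested. They weigh each difference against the spread between these 6 mice. The test moderates the spread of each gene toward that of the other genes tested, and standard errors and intervals rest on it. A gene is called where its adjusted p is at most 0.05 and its log2 fold change at least 0.5 in size.

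Promoter sequences are shown first because XBP1, ATF6 and ATF4 are known to act through short elements close to the start of their target genes. RefSeq promoter windows of the GRCm38.p6 assembly, from 250 bases before to 50 bases after the transcription start, were found for 33 of the 37 genes, and *Atf6*, *Derl1*, *Hyou1* and *Manf* had none. The counts were made on another assembly, GRCm39. The ER stress element (ERSE) was searched on both strands as CCAAT, 9 bases of any kind and CCACG. These 33 genes have 36 windows, and a gene counts once. The element stood in 7 of the 33 genes (21.2%) and in 37 of the 27025 genes of the promoter table (0.137%). The 7 genes were the chaperone genes *Hspa5*, *Hsp90b1*, *Dnajc3*, *Creld2* and *Pdia6* and the ERAD genes *Syvn1* and *Derl3*. *Hspa5* encodes BiP, the main Hsp70 of the ER and the usual readout of the response. The 250 bases before its start (chr2:34771840-34772089, plus strand) hold CCAAT 3 times on the gene's strand, once with CCACG at the ERSE spacing, and the element is in capitals.
Hspa5: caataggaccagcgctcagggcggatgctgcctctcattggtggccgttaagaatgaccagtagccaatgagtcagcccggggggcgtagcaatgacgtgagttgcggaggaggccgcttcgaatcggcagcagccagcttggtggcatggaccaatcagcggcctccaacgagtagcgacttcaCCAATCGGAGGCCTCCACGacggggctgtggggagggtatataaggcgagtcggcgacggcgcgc

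The ERSE of the other 6 genes is shown with 20 bases on each side, written 5′ to 3′ on the strand of the gene. The elements of *Creld2* and *Derl3* and the one of *Hsp90b1* nearer to the start lie on the opposite strand and therefore read CGTGG first. The windows are chr14:118937807-118937865 for *Dnajc3*, chr12:17266471-17266529 for *Pdia6*, chr19:6046512-6046570 for *Syvn1*, chr15:88819500-88819558 for *Creld2* and chr10:75893222-75893280 for *Derl3*, all on the plus strand. *Hsp90b1*, on the minus strand, holds the element at chr10:86705513-86705571 (near) and chr10:86705618-86705676 (far).
Dnajc3: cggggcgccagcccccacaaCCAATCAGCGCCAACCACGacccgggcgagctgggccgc
Pdia6: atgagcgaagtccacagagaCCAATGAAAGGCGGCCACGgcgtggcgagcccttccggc
Syvn1: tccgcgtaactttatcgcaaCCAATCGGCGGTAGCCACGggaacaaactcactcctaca
Creld2: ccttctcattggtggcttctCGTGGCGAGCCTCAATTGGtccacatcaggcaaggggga
Derl3: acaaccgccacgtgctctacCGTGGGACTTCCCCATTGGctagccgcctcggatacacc
Hsp90b1 near: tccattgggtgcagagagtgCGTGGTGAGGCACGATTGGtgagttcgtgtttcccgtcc
Hsp90b1 far: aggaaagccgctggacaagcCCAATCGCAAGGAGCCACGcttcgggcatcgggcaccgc

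The other motifs were searched on both strands too. TTGCATCA, a form of the C/EBP-ATF response element that ATF4 binds, stood in 3 of the 33 genes (9.09%) and in 1.03% of the genes of the table. The 3 genes were *Chac1* (chr2:119351029-119351076, plus strand), *Herpud1* (chr8:94386297-94386344, plus strand) and *Nupr1* (chr7:126625553-126625600, minus strand). ERSE-II, written ATTGG, 1 base and CCACG, stood in 2 genes (6.06%, against 0.0444% of the table), those of *Dnajb11* and *Herpud1*, and TGACGTGG, a form of the unfolded protein response element, in 0 of the 33 (0.714% of the table). The ERSE-II of *Dnajb11* lies after the transcription start and is not shown. Capitals mark the motif in the lines that follow. *Herpud1* is shown with both of its motifs because it was the only one of the 33 genes with both an ERSE or ERSE-II and TTGCATCA (second line chr8:94386357-94386407).
Chac1: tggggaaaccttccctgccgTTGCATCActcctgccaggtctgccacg
Herpud1: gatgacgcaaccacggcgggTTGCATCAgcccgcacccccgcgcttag
Herpud1 ERSE-II: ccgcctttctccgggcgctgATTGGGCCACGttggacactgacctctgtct
Nupr1: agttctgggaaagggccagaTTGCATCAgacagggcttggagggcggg

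None of the 37 genes was called in either direction in Pcp2-cre cerebella, where 3.17% of all tested genes were called. Without a fold-change threshold, 0 of the 37 were higher and 1, the ERAD adaptor gene *Sel1l*, was lower at an adjusted p of at most 0.05. The background shares were 2.99% of tested genes higher and 4.75% lower. At an unadjusted p under 0.05 the numbers were 2 higher (*Eif2ak4*, *Edem1*) and 6 lower, beside 8.36% and 9.67% of all tested genes. DESeq2 also called 0 of the 37. The differences were small, with log2 fold changes from -0.71 (*Derl3*) to 0.26 (*Edem1*), a median of -0.05 beside 0.0045 over all tested genes, and a median size of 0.08 beside 0.09. There were 14 genes above 0 and 23 below. In CPM, every Pcp2-cre mouse lay on one side of every control in 6 of the 37 genes (16.2%), which 22.2% of all tested genes showed. In whole tissue, fewer cells of a type and less RNA per cell cannot be told apart, and a change within Purkinje cells alone is diluted by the other cells.

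**Figure D1:**
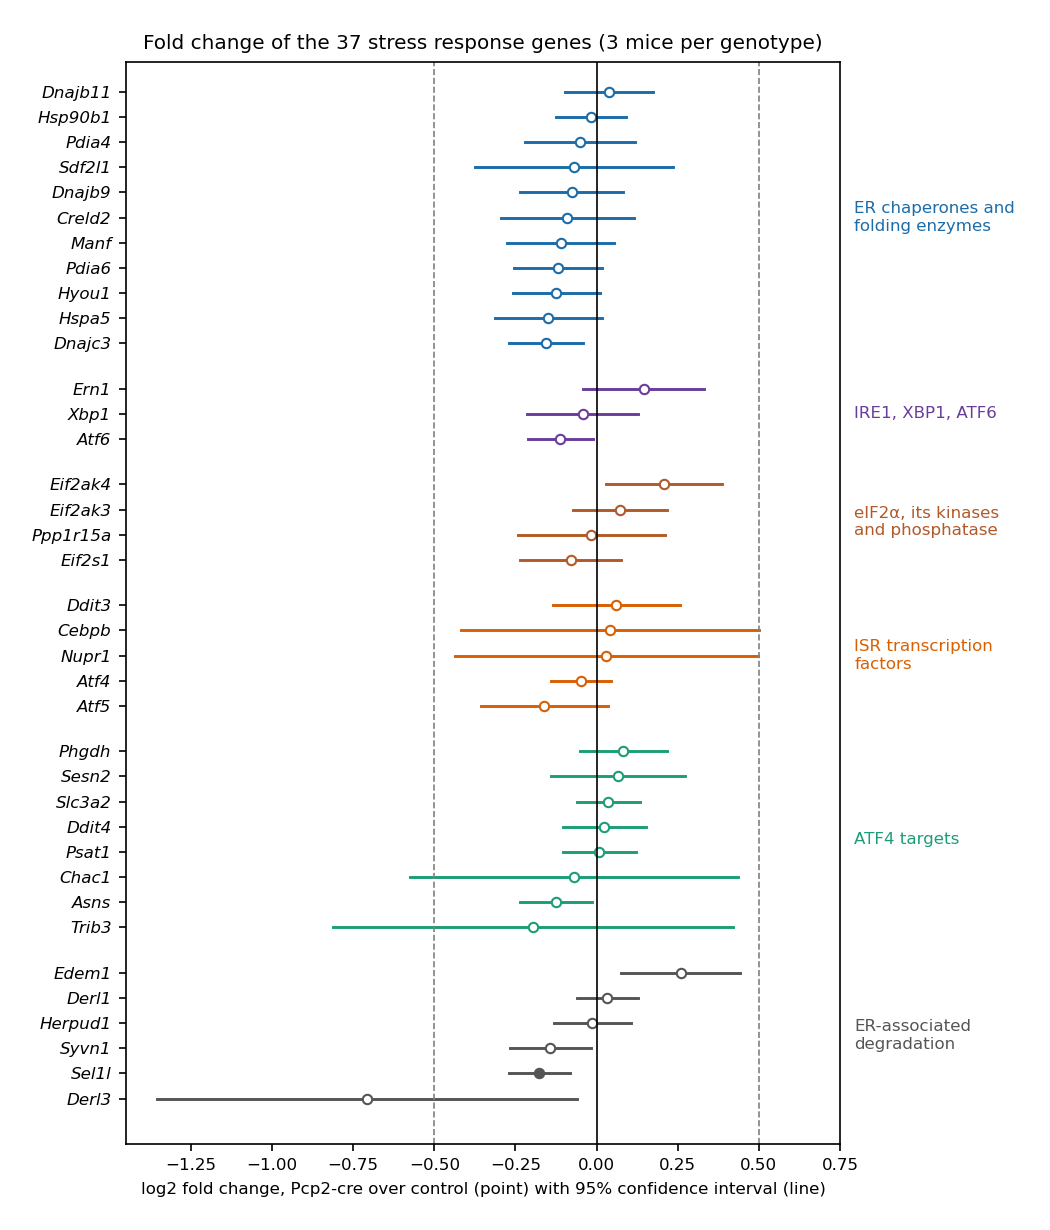
Log2 fold change of each of the 37 genes between 3 Pcp2-cre and 3 control cerebella (point) with its 95% confidence interval (line), grouped by role. The filled point is *Sel1l*, the one gene with an adjusted p of at most 0.05, and dashed lines mark the fold-change threshold of 0.5 in size. The intervals of 34 genes lie within the dashed lines, and those of *Trib3*, *Chac1* and *Derl3* cross one of them.

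The intervals state which sizes of change this fit leaves room for, given its moderated spread. For 34 of the 37 genes the 95% confidence interval of the log2 fold change lay within 0.5 of 0, and for 36 within 1. The highest upper bound of any of the 37 was 1.41-fold. Standard errors ran from 0.0438 (*Atf4*) to 0.31 (*Derl3*), and the widest intervals belonged to genes with few reads, where counts per gene and mouse in the whole set ran from 6 to 3119. The plot of fold changes with their intervals shows that *Trib3*, *Chac1* and *Derl3* were measured least exactly.

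The 11 ER chaperones and folding enzymes gave 0 calls, with 10 of 11 log2 fold changes below 0, a median of -0.09 and intervals that all lay within 0.5 of 0. *Hspa5* (BiP) had 295, 266 and 287 CPM in controls 1 to 3 and 305, 215 and 246 CPM in Pcp2-cre mice 1 to 3. Pcp2-cre mouse 1 had the highest level of the 6 and mouse 2 the lowest, so the groups overlapped. That gave a log2 fold change of -0.15 (SE 0.079, adjusted p = 0.343). Its interval of 0.805-fold to 1.01-fold rests on the moderated spread, and Pcp2-cre mouse 1 alone lay above every control. The p varied with the mice and the filter. Leaving out Pcp2-cre mouse 1 moved *Hspa5* to -0.30 with an adjusted p of 0.0074 from edgeR, and leaving out Pcp2-cre mouse 2 moved it to -0.04. With all 6 mice and no filter on low counts it was -0.16 with an adjusted p of 0.0183. Its exons share 2457 bp with *Rabepk* on the opposite strand, and whether the counting used strand is not given in the sources used here.

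*Dnajc3*, which encodes P58IPK, an ER co-chaperone, had the lowest log2 fold change of the group. It had 99.5, 92.2 and 97.8 CPM in controls and 90.2, 79.1 and 92.02 CPM in Pcp2-cre mice. All 3 Pcp2-cre mice lay below all 3 controls, though Pcp2-cre mouse 3 by a small margin. This amounts to a log2 fold change of -0.16 (SE 0.055) with an adjusted p of 0.101.

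At the other end of the group stood *Dnajb11*, the gene of the BiP co-chaperone ERdj3. It had 58.1, 53.3 and 62.0 CPM in controls and 62.6, 56.3 and 60.7 CPM in Pcp2-cre mice, and the groups overlapped. The fitted log2 fold change came to 0.04 (SE 0.0653, adjusted p = 0.833).

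The other chaperone genes had log2 fold changes of -0.02 for *Hsp90b1* (GRP94), -0.05 for *Pdia4* and -0.12 for *Pdia6*, which form and rearrange disulfide bonds, -0.07 for *Sdf2l1*, -0.08 for *Dnajb9* (ERdj4), -0.09 for *Creld2*, -0.11 for *Manf*, a secreted ER stress factor, and -0.12 for *Hyou1* (GRP170). Their adjusted p ranged upward from 0.324, the value of *Hyou1*. Exons of *Manf* share 3962 bp with its neighbor *Rbm15b* on the same strand, and those of *Hsp90b1* 844 bp with an opposite-strand long noncoding RNA, so their counts are less certain.

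In the chaperone group the Pcp2-cre mice differed among themselves by more than the genotypes did. Averaged over the 11 genes, log2 CPM minus the control mean was 0.04, -0.08 and 0.05 in controls 1 to 3. In Pcp2-cre mice 1 to 3 it was 0.07, -0.21 and -0.10. Of the 11 genes, 7 had their highest level in Pcp2-cre mouse 1 and 7 their lowest in Pcp2-cre mouse 2, so the males of this genotype held both ends. The map of levels by mouse shows this as a red column beside a blue one.

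**Figure D2:**
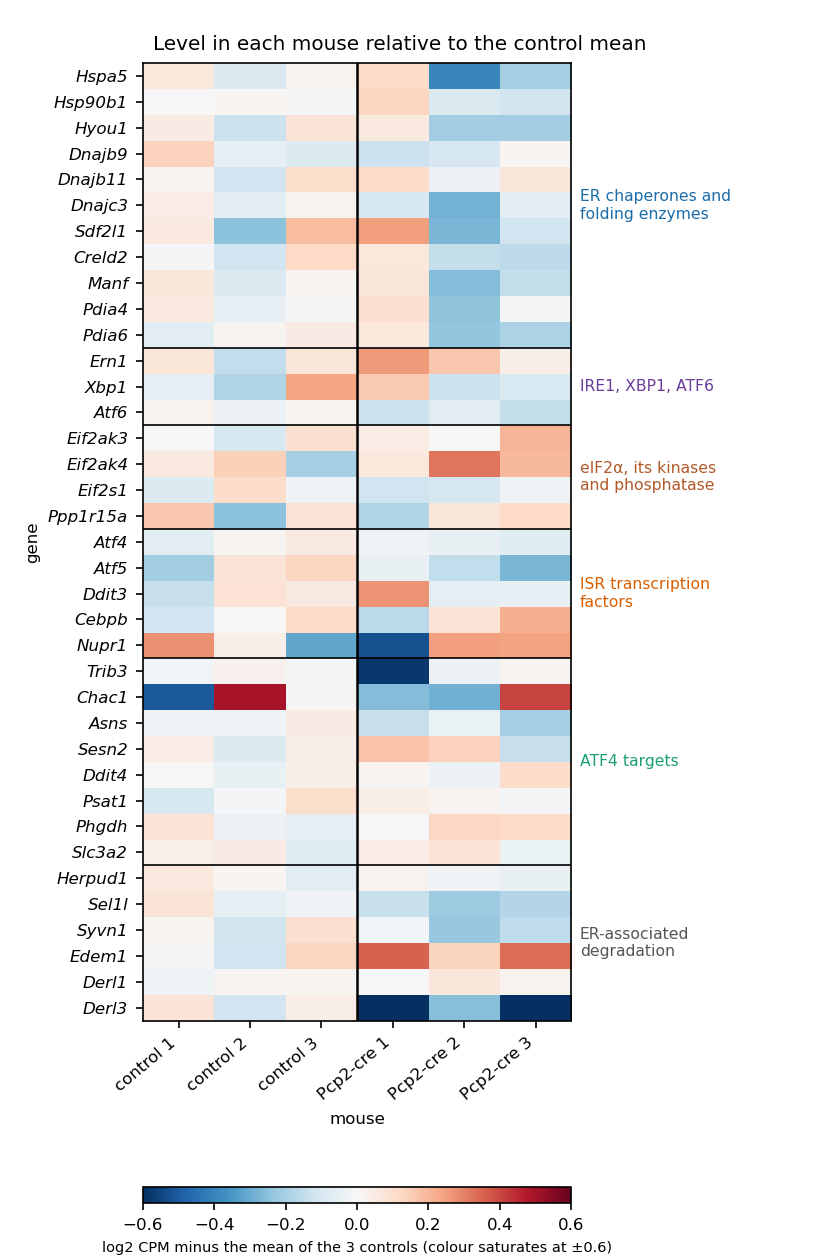
Level of each of the 37 genes in each of the 6 mice, as log2 CPM minus the mean of the 3 controls (color, saturated at 0.6 in size). In the ER chaperone block Pcp2-cre mouse 1 is mostly red and Pcp2-cre mouse 2 mostly blue, with means of 0.07 and -0.21. Strong colors elsewhere fall on the weakly expressed *Nupr1*, *Trib3*, *Chac1* and *Derl3*.

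None of the 3 genes of the IRE1, XBP1 and ATF6 branches passed the test. *Ern1*, which encodes IRE1α, had 25.2, 21.6 and 25.2 CPM in controls and 28.6, 26.8 and 24.6 CPM in Pcp2-cre mice. Pcp2-cre mouse 3 lay below controls 1 and 3, so the groups overlapped. On the log2 scale the difference was 0.15 (SE 0.0898, adjusted p = 0.441).

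*Atf6* had 85.3, 82.2 and 84.8 CPM in controls and 76.8, 80.6 and 76.0 CPM in Pcp2-cre mice. Without exception the Pcp2-cre mice lay below the controls. The difference was small, a log2 fold change of -0.11 (SE 0.0479), with an adjusted p of 0.204.

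*Xbp1* had 86.1, 78.9 and 106 CPM in controls and 99.8, 82.0 and 83.9 CPM in Pcp2-cre mice. Control 3, the one control with little choroid plexus RNA, was the highest of the 6 and control 2 the lowest. This left a log2 fold change of -0.04 (SE 0.0826, adjusted p = 0.854). With control 3 as the only control it was -0.26, and without control 3 it was 0.10. The direction for *Xbp1* therefore rested on which control was used. Control 3 was also the only female control, so choroid plexus RNA and sex cannot be told apart in this comparison. Their parts were not tested apart from each other, and the same holds for every value given with control 3 as the only control. A further edgeR fit of all 6 mice took choroid plexus gene levels as a covariate. In that fit *Xbp1* was lower at an adjusted p of at most 0.05, which it did not reach with sex as the covariate. Exons of *Xbp1* share 1526 bp with *Ccdc117* on the opposite strand.

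None of the 4 genes of eIF2α and its control passed the test, and their median log2 fold change was 0.03. *Eif2ak4*, the gene of the amino acid sensor kinase GCN2, had 44.2, 46.8 and 36.9 CPM in controls and 44.3, 53.0 and 48.5 CPM in Pcp2-cre mice. Control 3 was the lowest of the 6, and control 2 lay above Pcp2-cre mouse 1. Its log2 difference was 0.21 (SE 0.0858, adjusted p = 0.186). In the edgeR fit with choroid plexus gene levels as a covariate, *Eif2ak4* was higher at an adjusted p of at most 0.05. It did not reach that with sex as the covariate. With control 3 as the only control the log2 difference was 0.40, and without control 3 it was 0.10.

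*Eif2s1*, which encodes eIF2α itself, had 35.4, 40.5 and 36.8 CPM in controls and 34.5, 34.9 and 36.99 CPM in Pcp2-cre mice. The groups overlapped, and the log2 fold change was -0.08 (SE 0.0749, adjusted p = 0.657). *Eif2ak3*, the gene of PERK, had a log2 fold change of 0.07 (adjusted p = 0.668). *Ppp1r15a*, which encodes GADD34, the stress-induced subunit that brings a phosphatase to eIF2α, had -0.02 (adjusted p = 0.967).

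The 5 transcription factor genes of the integrated stress response gave 0 calls, and none separated the genotypes. *Atf4* had 109, 115 and 118 CPM in controls and 112, 111 and 108 CPM in Pcp2-cre mice. The 6 values overlapped and spanned less than those of most of the 37 genes, with 1.09 as the ratio of highest to lowest. The estimate was a log2 fold change of -0.05 (SE 0.0438, adjusted p = 0.649), and its interval of 0.908-fold to 1.03-fold was narrow.

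*Ddit3*, which encodes the proapoptotic factor CHOP, had 26.8, 31.4 and 30.7 CPM in controls and 35.7, 28.5 and 28.6 CPM in Pcp2-cre mice. Pcp2-cre mouse 1 was the highest, and the other Pcp2-cre mice lay within the controls. That gave a log2 fold change of 0.06 (SE 0.094, adjusted p = 0.816), with an upper bound of 1.19-fold. The count table holds 1 row for this symbol, under the identifier ENSMUSG00000116429. The deposited FPKM table (fragments scaled to exon length and library size) gives 2 identifiers, with 18.1 to 24.3 FPKM for ENSMUSG00000025408 and at most 0.0538 FPKM for the other. The count row thus held 193 to 310 counts per mouse under the identifier that is near 0 FPKM. Exons of that identifier span 105 bp, all shared with ENSMUSG00000025408, so the reads may belong to the latter. FPKM of *Ddit3* given in this text are those of ENSMUSG00000025408. Its exons share 3576 bp with *Mars1* on the opposite strand, which makes the *Ddit3* level less certain.

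*Atf5*, an ATF4 relative, had 26.2, 32.0 and 33.2 CPM in controls and 29.4, 27.4 and 25.0 CPM in Pcp2-cre mice. Control 1 lay among the Pcp2-cre mice, and the log2 fold change was -0.16 (SE 0.0939, adjusted p = 0.399). *Cebpb* and *Nupr1* were weakly expressed, with 22 to 36 and 27 to 54 counts per mouse, and had log2 fold changes of 0.04 and 0.03 with standard errors of 0.22.

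The 8 ATF4 targets lay on both sides of 0, with 5 above, 3 below, a median log2 fold change of 0.02 and 0 calls. *Phgdh*, the first enzyme of serine synthesis, had 53.0, 48.8 and 48.3 CPM in controls and 50.2, 54.6 and 54.1 CPM in Pcp2-cre mice. Control 1 lay above Pcp2-cre mouse 1, and the log2 fold change was 0.08 (SE 0.0648, adjusted p = 0.577). *Psat1*, the next enzyme of that pathway, had a log2 fold change of 0.01 with an interval of 0.931-fold to 1.09-fold.

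*Trib3*, a pseudokinase gene that ATF4 and CHOP raise, stood at the detection end of the set. It had 15, 13 and 19 counts in controls and 9, 16 and 13 counts in Pcp2-cre mice, which is 1.87, 1.94 and 1.88 CPM against 1.19, 1.85 and 1.92 CPM. Pcp2-cre mouse 1 was the lowest, mouse 2 lay just below the controls and mouse 3 among them. The log2 fold change was -0.20 (SE 0.295, adjusted p = 0.817). Its 95% interval, from 0.57-fold to 1.34-fold, was among the widest of the set. *Chac1*, which encodes a glutathione-degrading enzyme, ranged from 3.74 to 7.74 CPM within the controls and from 4.39 to 7.25 CPM in Pcp2-cre mice (log2 fold change -0.07, SE 0.243).

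*Asns*, the asparagine synthetase gene, was the only target whose groups did not overlap in CPM, though they did in FPKM. It had 77.0, 77.0 and 81.1 CPM in controls and 71.3, 76.2 and 68.1 CPM in Pcp2-cre mice, all of them lower. This amounts to a log2 fold change of -0.12 (SE 0.0532, adjusted p = 0.203). The amino acid transporter gene *Slc3a2* and the mTORC1 inhibitor genes *Sesn2* and *Ddit4* had log2 fold changes of 0.04, 0.06 and 0.02, with adjusted p of 0.765, 0.81 and 0.901.

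The 6 ERAD genes held the one member that passed the test and both extremes of the 37. *Sel1l* (ENSMUSG00000020964, GRCm39 chr12:91772799-91815982, minus strand) encodes the adaptor of the HRD1 ubiquitin ligase, which draws misfolded proteins out of the ER. It had 218, 198 and 203 CPM in controls (206 ± 10.3, SD, n = 3) and 188, 178 and 183 CPM in Pcp2-cre mice (183 ± 4.96, SD, n = 3). All 3 Pcp2-cre mice lay below all 3 controls. The fitted log2 fold change came to -0.18 (SE 0.045, adjusted p = 0.0151), which is 11.5% less RNA (0.829-fold to 0.944-fold). That size is under the threshold of 0.5, so *Sel1l* was not called. Without control 1, the highest mouse, it was -0.14 and the adjusted p 0.139, and with control 3 as the only control it was -0.16. Without Pcp2-cre mouse 2 or 3 the adjusted p was 0.143 or 0.0623 in edgeR.

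*Syvn1*, which encodes the ligase HRD1 that SEL1L serves, had 84.1, 77.0 and 88.9 CPM in controls and 82.2, 71.0 and 74.9 CPM in Pcp2-cre mice. Pcp2-cre mouse 1 lay within the controls and the other Pcp2-cre mice below them. On the log2 scale the difference was -0.14 (SE 0.0602, adjusted p = 0.199). With control 3 as the only control it was -0.23.

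*Edem1*, the gene of a mannosidase-like protein that marks glycoproteins for ERAD, had the largest log2 fold change above 0 in the set. It had 26.2, 24.3 and 28.8 CPM in controls (26.4 ± 2.29, SD, n = 3) and 33.7, 29.0 and 33.3 CPM in Pcp2-cre mice (32.0 ± 2.62, SD, n = 3). Every Pcp2-cre mouse lay above every control, mouse 2 barely. This left a log2 fold change of 0.26 (SE 0.0876) with an adjusted p of 0.0833. With control 3 as the only control it was 0.14.

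*Derl3*, a derlin gene, had the lowest log2 fold change of the set and the fewest reads. It had 18, 13 and 22 counts in controls and 9, 15 and 6 counts in Pcp2-cre mice, or 2.25, 1.94 and 2.18 CPM against 1.19, 1.73 and 0.888 CPM. The groups did not overlap in CPM, though they did in FPKM. Its log2 difference was -0.71 (SE 0.31) with a 95% interval from -1.35 to -0.06, and the adjusted p was 0.22. The gene is known for high levels in secretory cells such as plasma cells, and 5 plasma and B cell marker genes summed to 2.48 to 3.13 CPM in controls and 2.52 to 3.92 CPM in Pcp2-cre mice. Of these 5, *Mzb1* had 0 to 2 counts per control and 0 in every Pcp2-cre mouse, and *Ighm* had 11 to 14 counts in controls and 9 to 25 in Pcp2-cre mice (log2 fold change 0.53, adjusted p = 0.419). Their part in the *Derl3* value was not tested. The ERAD genes *Herpud1* and *Derl1* had log2 fold changes of -0.01 and 0.03 with standard errors of 0.0569 and 0.0449.

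The 7 genes with an ERSE in the promoter window were read together with their expression. All 7 had log2 fold changes below 0, from -0.71 (*Derl3*) to -0.02 (*Hsp90b1*) with a median of -0.14, and none had an adjusted p of at most 0.05. Of these 7, 5 are chaperone genes, a group in which 10 of 11 lay below 0, beside 23 of all 37 genes. The count therefore largely repeats that group. The 3 genes with TTGCATCA had -0.07 (*Chac1*), -0.01 (*Herpud1*) and 0.03 (*Nupr1*). These values describe the genes that hold the letters and say nothing of binding.

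Levels between genes were compared on the FPKM scale, which divides by exon length. In controls the mean level ran from 0.623 FPKM (*Trib3*) to 105 FPKM (*Hsp90b1*). *Hspa5* came second with 90.2 ± 4.23 FPKM (SD, n = 3), below *Hsp90b1* in every control, followed by *Atf4* with 61.0 ± 1.72 FPKM. The stress-induced *Ddit3* had 21.1 ± 2.70 FPKM, against 1.27 ± 0.159 FPKM for *Cebpb* and 0.623 ± 0.0142 FPKM for *Trib3*. Neighbors in the middle of the order, such as *Psat1* (26.9 ± 1.16 FPKM) and *Manf* (27.9 ± 3.07 FPKM), overlapped between mice. In Pcp2-cre mice *Hsp90b1* had 104 ± 11.7 FPKM, *Hspa5* 82.6 ± 17.1 FPKM and *Atf4* 60.2 ± 4.74 FPKM, so the order of the leading genes was the same.

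**Figure D3:**
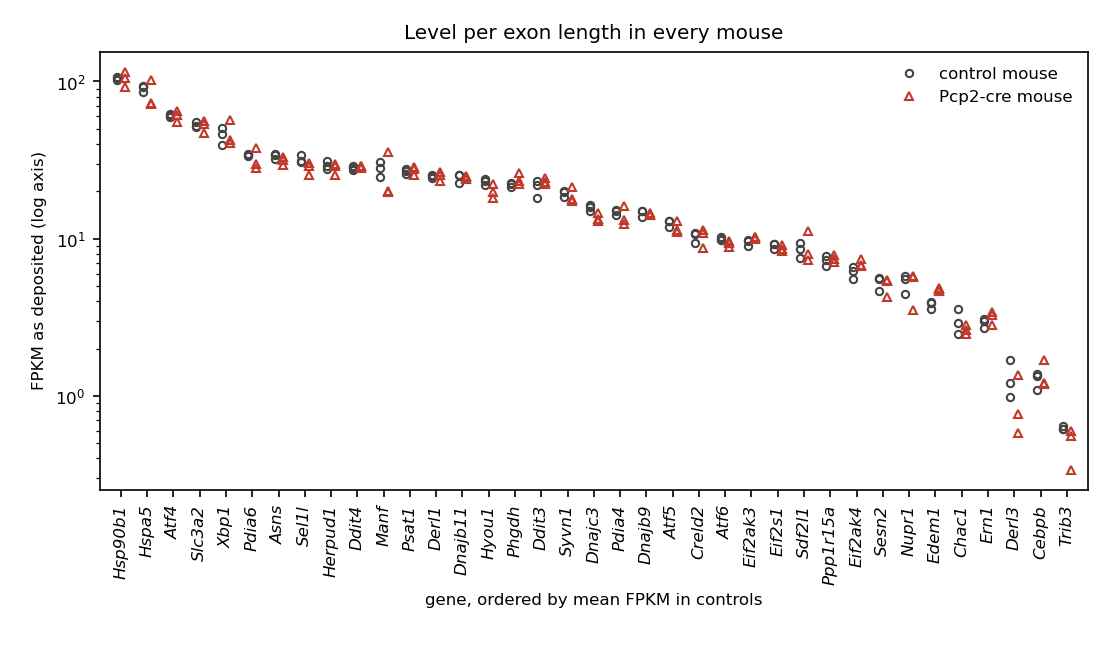
Deposited FPKM of each of the 37 genes in each control (circle) and Pcp2-cre mouse (triangle), on a log axis, ordered by the control mean. *Hsp90b1* and *Hspa5* lead with control means of 105 and 90.2 FPKM, and *Trib3* ends the order with 0.623 FPKM. Circles and triangles stand apart for 7 genes (*Sel1l*, *Dnajc3*, *Atf6*, *Eif2ak3*, *Eif2ak4*, *Edem1* and *Trib3*) and overlap for the others.

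The rest of the pathway was read from 99 further genes, of which 95 were tested. They were other ER folding and translocation genes, sensors and death effectors, ERAD genes, and amino acid, transfer RNA synthetase and other genes of the integrated stress response. Of the 95, 2 were called, both higher, and 0 lower, where 3.17% of all tested genes were called in either direction. The 95 had a median log2 fold change of -0.03, with 38 above 0 and 57 below. At an adjusted p of at most 0.05 there were 4 higher and 4 lower, beside 2.99% and 4.75% of all tested genes. Between the genotypes 19 of the 95 did not overlap, beside 22.2% of all tested genes. *Pdia2*, *Ern2*, *Gdf15* and *Fgf21*, which encode a folding enzyme, a second IRE1 and a pair of secreted stress hormones, had at most 5 counts in any mouse and were not tested.

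*Atf3*, a stress factor gene that ATF4 and other pathways raise, rose in Pcp2-cre cerebella. It had 5, 9 and 14 counts in controls and 23, 43 and 27 counts in Pcp2-cre mice, or 0.624, 1.34 and 1.39 CPM against 3.03, 4.96 and 3.99 CPM. Every Pcp2-cre mouse lay above every control. The estimate was a log2 fold change of 1.82 (SE 0.304, adjusted p = 3.07e-04), a 3.54-fold difference with a 95% interval from 2.28 to 5.50.

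*Bcl2l11*, which encodes the cell death protein BIM, also rose. It had 10.4, 11.3 and 12.2 CPM in controls and 15.8, 16.6 and 19.97 CPM in Pcp2-cre mice, without overlap. That gave a log2 fold change of 0.62 (SE 0.119, adjusted p = 0.00147), and with control 3 as the only control it was 0.51.

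Under the fold-change threshold, 6 more of the 95 genes reached an adjusted p of at most 0.05. They are named here after their values were seen. Higher were *Slc7a11*, the cystine transporter gene, with a log2 fold change of 0.40 (adjusted p = 0.00595), and *Ndrg1*, with 0.23 (adjusted p = 0.00285). Lower were *Selenos*, an ERAD selenoprotein gene, with -0.47 (adjusted p = 1.70e-04), the translocon gene *Sec61a1* with -0.20 (adjusted p = 0.0103), the ER reductase gene *Dnajc10* with -0.19 (adjusted p = 0.0394) and the tryptophanyl-tRNA synthetase gene *Wars1* with -0.16 (adjusted p = 0.0373). The other eIF2α kinase genes, *Eif2ak1* (HRI) and the interferon-inducible *Eif2ak2* (PKR), had log2 fold changes of -0.03 and 0.33, with adjusted p of 0.828 and 0.179.

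**Figure D4:**
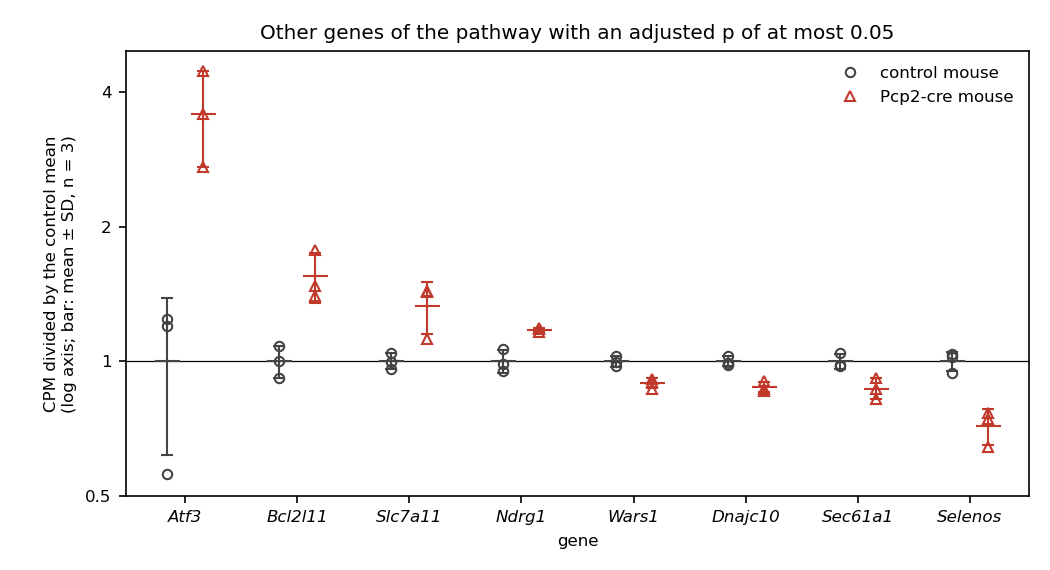
CPM divided by the control mean (log axis) for the 8 further genes of the pathway with an adjusted p of at most 0.05, in each control (circle) and Pcp2-cre mouse (triangle), with the mean and SD of 3 mice as bars. *Atf3* and *Bcl2l11* pass the fold-change threshold, with log2 fold changes of 1.82 and 0.62, and *Selenos* is the lowest with -0.47. No circle and triangle of one gene overlap.

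Cell type markers moved between the genotypes in the same libraries. All 8 Purkinje cell markers passed an adjusted p of 0.05 on the lower side, 6 of them called, with summed levels of 7422 to 8149 CPM in controls and 4108 to 4554 CPM in Pcp2-cre mice. Of 8 microglia markers 6 were called higher (74.9 to 80.2 CPM against 199 to 221 CPM), while *P2ry12* and *Tmem119*, with adjusted p of 0.495 and 0.922, did not pass the test. Of 8 astrocyte markers 2, *Gfap* and *Aqp4*, were called higher, 1 more was higher and 2 were lower at an adjusted p of at most 0.05 (2803 to 2837 CPM against 3146 to 3229 CPM). Of 6 oligodendrocyte markers 4 were higher at an adjusted p of at most 0.05 with 0 called (3548 to 3763 CPM against 4154 to 4366 CPM), and of 7 granule cell markers 1 was (5102 to 5276 CPM against 5295 to 5519 CPM). The 5 endothelial markers gave 0 at an adjusted p of at most 0.05 (197 to 204 CPM against 212 to 220 CPM), with 1 at an unadjusted p under 0.05. No marker of these 6 lists was at 0 counts in any mouse. The part of these shifts in the values of *Sel1l*, *Edem1*, *Atf3* and *Bcl2l11* was not tested.

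**Figure D5:**
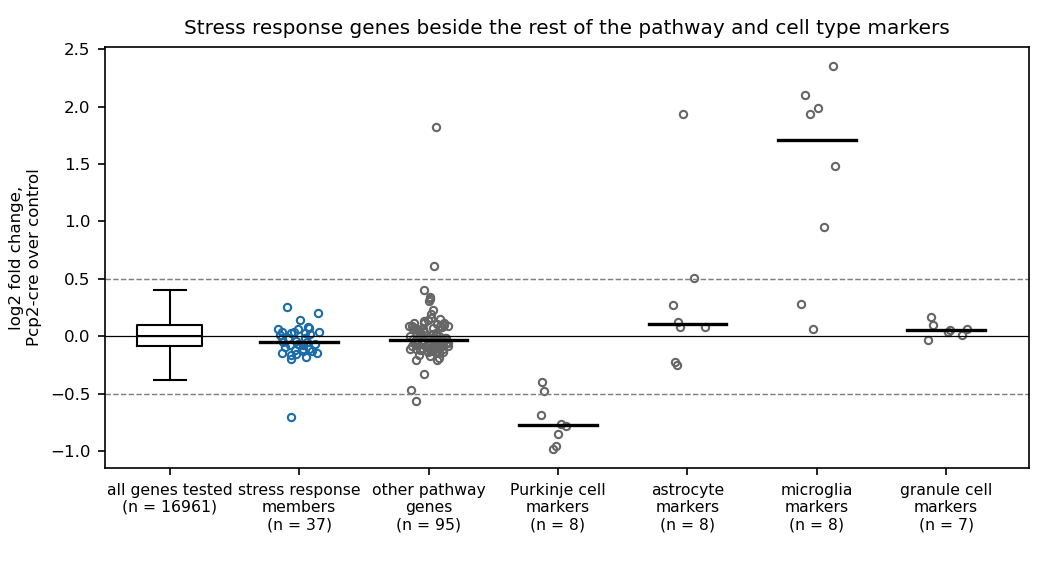
Log2 fold change of all 16961 tested genes (box) and of single genes (points), with horizontal bars at the medians. The box spans the quartiles and its whiskers reach fixed outer percentiles, with no points drawn beyond them. Points show the 37 stress response genes, the 95 tested genes of the rest of the pathway and marker lists of 4 cell types. The 37 genes lie between -0.71 and 0.26 around a median of -0.05, while the Purkinje cell and microglia markers have medians of -0.77 and 1.71. Dashed lines mark 0.5 in size.

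Gene models limit how exactly these counts belong to the named genes. Exons of 23 of the 37 genes overlap those of another annotated gene in Gencode, for 22 of them on the opposite strand. Reads from such a stretch cannot be assigned without the strand, whose use is not given in the sources used here.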

How the data were processed

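Poly A RNA of 6 cerebella was sequenced. Per the labels and the paper's methods, the authors aligned paired reads with STAR on GRCm39 and used featureCounts and StringTie with Gencode genes. Tool versions, the Gencode release and the use of strand are not given in the sources used here. The authors deposited raw counts per gene for 53746 symbols and, separately, FPKM values for 55005 identifiers. Total counts ran from 6733178 to 10178218 per mouse.

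The counts were tested with edgeR 4.0.16 in R 4.3.3 (filterByExpr, TMM, quasi-likelihood test, Benjamini-Hochberg adjustment over the 16961 genes kept) at the thresholds the study used for its gene lists, an adjusted p of 0.05 and a log2 fold change of 0.5. CPM are counts divided by TMM-scaled library sizes. The scripts were tested on simulated counts. Alternatives were DESeq2 1.42.0, its size factors, other filters on low counts, other fold thresholds, limma 3.58.1 on log2(FPKM + 1) or log2(FPKM + 0.1), a replicate block, covariates for sex and for choroid plexus genes, and each mouse left out. Replicates differed by more than counting noise, with a chi-square per gene from 1.37 to 3.18, and were all kept.

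The 37 genes, the lists and the tests were chosen with earlier results of these data known. All 37 genes could be named. Those with an adjusted p of at most 0.05, those with the highest and lowest fold change of each role group, and the called genes among the other pathway genes were given in full. *Hspa5*, *Xbp1*, *Atf4*, *Asns* and *Syvn1* are also shown by mouse, and 8 uncalled pathway genes and the 4 untested ones are named, after their values were seen. Symbols of 11 transfer RNA synthetase genes were matched through older names. Positions and exon overlaps came from a Gencode annotation of GRCm39, promoters from RefSeq on GRCm38.p6.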

Additional observations from a re-analysis of the deposited data

How the results depend on the processing

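None of the 37 genes was called in any of 17 other fits, nor at a fold threshold of 1 (log2); at a threshold of 0 there was 1 lower. The median log2 fold change of the 37 ran from -0.07 to -0.01, 20 genes kept their sign in every fit that held them (18 in all 17 fits, *Trib3* and *Derl3* in 16) and 17 crossed 0 in at least 1, and 9 reached an adjusted p of at most 0.05 somewhere. *Sel1l* kept that in 9 of the 17 (log2 fold change -0.21 to -0.14, adjusted p 0.0034 to 0.528). The fit without both controls rich in choroid plexus RNA, an alternative chosen after seeing the data, left 1 control. Its numbers of genes at an adjusted p are therefore not given. Without the fold threshold, higher genes numbered 1 with the choroid plexus score as a covariate (*Eif2ak4*) and 0 to 1 with each mouse left out in turn (*Edem1* without control 3). Lower genes numbered 0 in all 3 FPKM fits and 4 with no filter on low counts (*Hspa5*, *Dnajc3*, *Sel1l*, *Syvn1*). With a mouse left out they numbered 0 to 4: 0 without control 1, Pcp2-cre mouse 2 or Pcp2-cre mouse 3, and 4 without Pcp2-cre mouse 1 (*Hspa5*, *Hyou1*, *Pdia6*, *Sel1l*). With the choroid plexus score the 1 lower gene was *Xbp1*. Over all genes, 233 were called higher and 304 lower; DESeq2 gave 150 higher, log2(FPKM + 1) 149 and 189, the same without a filter 105 and 116, a fold threshold of 0 507 and 805, and a threshold of 1 142 and 94. *Sting1* had 0.49 with log2(FPKM + 0.1), 0.46 with log2(FPKM + 1) with or without a filter, and 0.45 to 0.65 with a mouse left out. *Atf3* stayed called in all 16 fits that held it (0.80 to 2.06). *Bcl2l11* lost its call in 3 of 17, at 0.47 in both log2(FPKM + 1) fits and also in the fit with control 3 as the only control. The causes were not tested.

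Same-numbered mice deviated together with correlations of 0.041, 0.056 and 0.166, not all over 0.1, so the numbers were not taken to pair the mice. A fit with the number as a replicate block gave 1 higher gene (*Edem1*, adjusted p = 0.0446) and 1 lower (*Sel1l*) at an adjusted p of at most 0.05; it changed no call. Not every mouse correlated best with its own number.

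Depth limits *Trib3* and *Derl3*, which had under 10 counts in at least 1 mouse and left the set with at least 10 counts in every mouse.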
